A study of Capra hircus with 6 samples.

Results

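The semaphorin, ephrin, Slit, and netrin guidance genes were described in dermal papilla cells (DPCs) of goat secondary hair follicles, cultured with or without all-trans retinoic acid (ATRA). Members were taken by gene family name, from the identifier or the upper-case symbol of each row of the deposited count table. This choice was made with earlier results of these data known. The name rule took the semaphorins of classes 3 to 7, the plexins and neuropilins, the Eph receptors and ephrins, the Slits and Robos, and the netrins and UNC5 receptors. It found 70 rows among the 15944 listed, of which 66 are listed under the gene's symbol and 4 under a LOC number annotated as PLXNA1 or PLXNB2. RNA-seq was available for 3 Control libraries and 3 ATRA libraries, all wild-type primary cultures from Capra hircus skin. The cells were isolated from the scapular skin of Albas cashmere goats, adults aged 3 years, in the growth phase of the coat, and the cultures came from 3 animals. The ATRA group received 0.1 mM for 24 h. The Control group was kept under standard conditions without ATRA. The labels do not say whether equal replicate numbers mark the same animal, and all 6 libraries carry the same batch number.

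Guidance molecules are signals by which a cell steers the shape and movement of its neighbours. Secreted or membrane-bound semaphorins bind plexins, often with a neuropilin as co-receptor, and act on small GTPases. Ephrins sit on the cell surface and bind Eph receptor tyrosine kinases on the cell they touch, so that both cells can receive a signal. Slits are large secreted proteins read by Robo receptors, and netrins are laminin-related secreted proteins read by receptors that include the UNC5 family. These families were first studied in growing axons and also act in blood vessels, mesenchyme, and skin.

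Depth was even, with 36887160 to 38012771 counts per Control library and 35532339 to 36870939 per ATRA library. Levels are given as normalised CPM, that is, counts scaled to a common library size (CPM) over the tested genes and adjusted with edgeR's TMM factors. These values are not set per transcript length, so levels were not compared between genes. A fold change is the log2 ratio of ATRA to Control (log2FC) with its standard error (SE), from the two-sided quasi-likelihood test of edgeR. The p-values were adjusted by the Benjamini-Hochberg method over 12588 tested genes. A gene rose or fell where the adjusted p was under 0.05, and it was called higher or lower where |log2FC| was also above 1. TMM factors were 0.842 to 0.851 in the Control group and 1.16 to 1.20 in the ATRA group. Dividing by library size only would therefore move the median log2FC of all tested genes from 0.04 to 0.52, and changes are given relative to the TMM scale.

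The labelled cell type was checked against 14 markers of fibroblasts and dermal papilla cells, whose summed level was 93800 to 95500 CPM in the Control libraries and 4830 to 5150 CPM in the ATRA libraries. Of these, 10 were called lower with ATRA, led in counts by COL1A1, COL1A2, and VIM. The largest fall among them was in ACTA2, which encodes alpha-SMA, from 6580 ± 462 to 8.37 ± 0.829 CPM (SD, n = 3 each, log2FC -9.62). PROM1, which encodes the papilla marker CD133, and ALPL had at most 1 count in any library. PDGFRB fell by less than 2-fold (log2FC -0.44, adjusted p = 5.04e-07). SOX2 went the other way on few reads and was not tested, with 5, 0, and 2 counts in the Control libraries and 10, 16, and 9 in the ATRA libraries. The study identified its purified cells by positive staining for the proteins alpha-SMA and CD133. In bulk RNA, fewer cells of a type and less RNA of a gene per cell cannot be told apart. The summed level of other cells' markers in the Control and ATRA libraries was 3.18 to 5.01 and 5.37 to 5.97 CPM for 8 keratinocyte genes (1 tested, none called), 9.27 to 12.9 and 41.3 to 44.3 CPM for 6 leukocyte genes (2 called higher, CD68 and CD14), 16.1 to 17.6 and 32.2 to 39.0 CPM for 3 melanocyte genes (MITF called higher), and 121 to 125 and 84.9 to 92.5 CPM for 7 genes of Schwann cells and neurons (SNAP25 called higher, S100B and NGFR lower). The 7 endothelial markers summed to 82.4 to 90.3 CPM without ATRA and 16.0 to 17.6 CPM with it. ERG was called lower, and PECAM1 was called higher with 0 counts in the Control libraries and 242, 340, and 206 in the ATRA libraries. Some defining genes were at or near 0, with at most 2 counts in any library (TP63, CDH1, CDH5, AIF1, and ITGAM). Others were not. KRT14 had 20, 14, and 10 counts in the Control libraries and 3, 0, and 0 in the ATRA libraries, and KRT5 had 2, 7, and 3 against 0 in each. VWF had 5 to 12 counts per library, and TEK had 14 to 57 and rose (log2FC 0.87, adjusted p = 0.0122). The part of other cell types in the results below was not tested.

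Of the 70 rows, 47 passed the filter on low counts and were tested. With ATRA, 11 were called higher and 16 lower, 10 more rose or fell by 2-fold or less, and 10 did not pass the test. Among all tested genes, 13.7% were called higher and 17.3% lower. The balance of directions depended on the scaling. With library size only, 14 members were called higher and 11 lower, and over all genes 3389 were called higher and 1471 lower, against 1729 and 2173 with TMM. An adjusted p under 0.05 was reached by 37 members (78.7%) against 79.7% of all tested genes, and the libraries of the groups did not overlap for 38 members (80.9%) against 80.1% of all tested genes. The share of members that moved at all was therefore near the background. Of the 47, 9 passed the filter through a single group. These were SEMA5A, SEMA6D, EPHA5, EPHB6, EFNA4, and EFNA5 through ATRA, and SEMA3E, SEMA3G, and EPHA3 through Control. A difference between the groups is in part built into that selection, so calls among them are no separate result. Among the 38 members over the filter in both groups, 6 were called higher (15.8%) and 13 lower (34.2%), where 10.1% and 16.0% of such genes in the whole table were. The median log2FC of the tested members was -0.19, with a range in which NTN4, UNC5B, and SEMA6D stood at the upper end and EPHA3 and the class 3 semaphorins SEMA3E and SEMA3G at the lower. Of these genes at the ends, only NTN4 and UNC5B were over the filter in both groups.

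**Figure D1:**
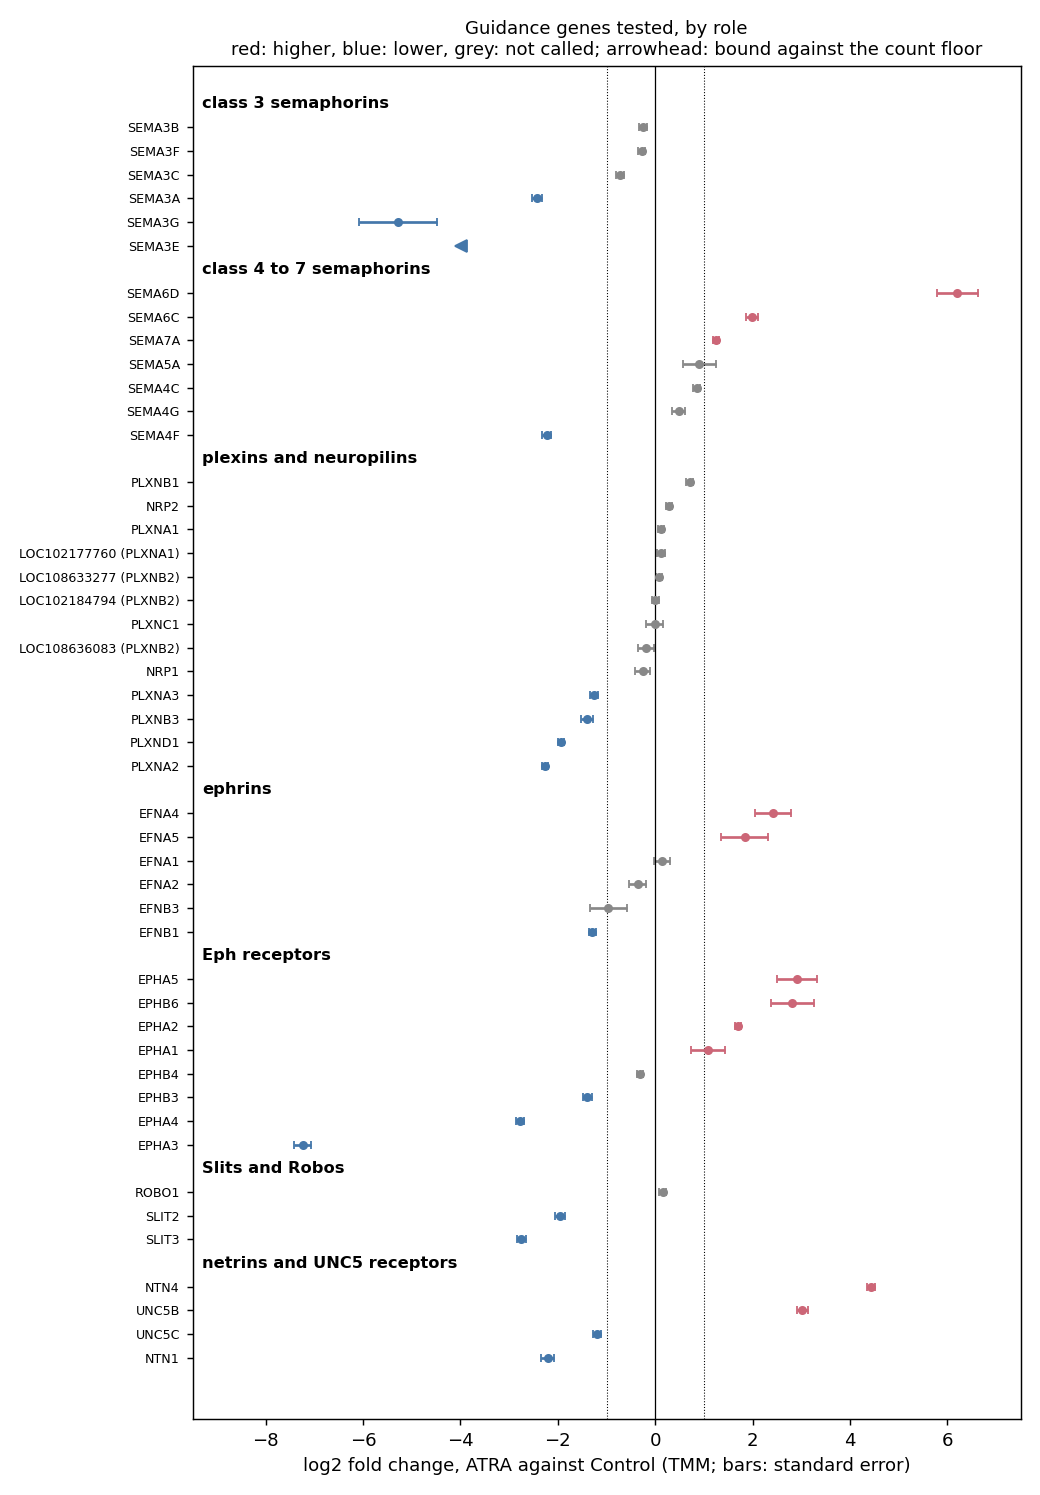
Log2 fold change of the 47 tested guidance genes (x axis, ATRA against Control, TMM scale) by role, with bars for the standard error and dotted lines at -1 and 1. Members of every role but the plexins, Slits, and class 3 semaphorins were called in both directions, SEMA3E is drawn at its bound against the count floor, and SEMA3G rests on 1 count in the ATRA libraries.

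Both tested netrins were called, in opposite directions. NTN4, a netrin of basement membranes that binds laminin, had 11.9, 14.2, and 12.7 CPM in the Control libraries and 267, 302, and 270 CPM in the ATRA libraries. Every ATRA library lay far above every Control library, and the log2FC was 4.43 (SE 0.0791, adjusted p = 3.92e-19). NTN1, the founding axon-attracting netrin, went the other way. It had 92.5, 85.8, and 96.1 CPM without ATRA and 14.6, 23.9, and 20.8 CPM with it, with no overlap. Its log2FC was -2.21 (SE 0.132, adjusted p = 2.84e-09).

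Their receptors also parted. UNC5B, a netrin receptor that is known from blood vessels and as a dependence receptor, rose from 4.16, 4.82, and 5.95 CPM to 37.4, 43.7, and 40.5 CPM (log2FC 3.02, SE 0.111, adjusted p = 1.34e-14). UNC5C, a receptor of the same family, fell from 44.1, 45.0, and 48.7 CPM to 17.4, 21.4, and 21.3 CPM (log2FC -1.20, SE 0.0854, adjusted p = 2.97e-10). The groups did not overlap for either receptor. With library size only the log2FC of UNC5C was -0.72, short of the threshold of size. UNC5A, UNC5D, and NTN5 had 3 counts or fewer in every library, and NTN3 had at most 15, so these were not tested.

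Both Slits with enough counts fell, while the receptor ROBO1 did not pass the test. SLIT3 had 43.0, 40.1, and 46.1 CPM in the Control libraries and 5.62, 7.12, and 6.43 CPM in the ATRA libraries (log2FC -2.75, SE 0.0964, adjusted p = 6.35e-15). SLIT2 had 29.4, 30.7, and 32.4 CPM without ATRA and 7.68, 9.25, and 6.81 CPM with it (log2FC -1.96, SE 0.103, adjusted p = 2.99e-12). All ATRA libraries lay below all Control libraries for both. ROBO1, the Slit receptor with the most counts, had 74.3, 73.4, and 84.1 CPM without ATRA and 80.1, 92.1, and 85.0 CPM with it. The groups overlapped, and the log2FC of 0.15 (SE 0.0698) had an adjusted p of 0.0568. That value lies near the threshold and passed it without Control replicate 3 (0.0207) and without ATRA replicate 1 (0.0273), and the log2FC was 0.63 with library size only. SLIT1, ROBO2, and ROBO3 were not tested. ROBO3 had 6, 6, and 0 counts without ATRA and 2, 0, and 0 with it, ROBO2 had 2 to 11 counts per library with overlapping groups, and SLIT1 had 1 count in all.

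**Figure D2:**
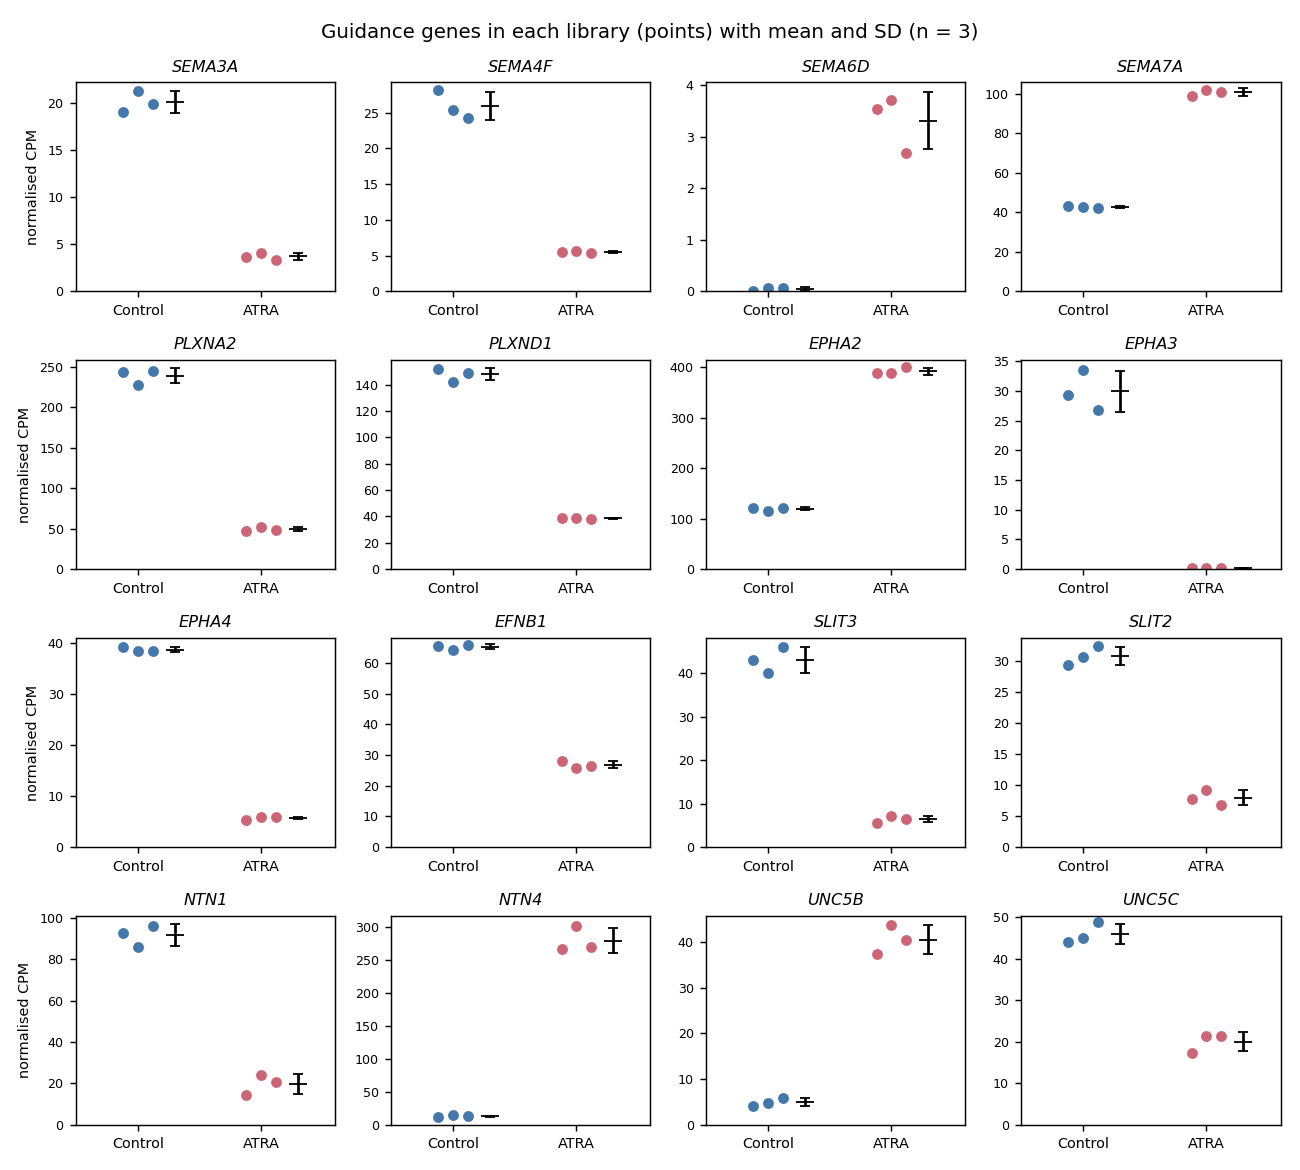
Normalised CPM (y axis, from 0) of 16 guidance genes in each of 3 Control (blue) and 3 ATRA (red) libraries, with the mean and SD beside the points. All 16 were taken from the members called higher or lower, so a separation of the groups follows from that choice. An example is NTN4, with at most 14.2 CPM without ATRA and at least 267 with it. Of all tested genes, 80.1% had groups that did not overlap.

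Class 3 semaphorins are the secreted semaphorins, and most of them signal through a neuropilin and a plexin. None of the 6 tested was higher with ATRA on the TMM scale. SEMA3A, a repellent cue, had 19.0, 21.3, and 19.9 CPM in the Control libraries and 3.68, 4.1, and 3.33 CPM in the ATRA libraries (log2FC -2.43, SE 0.110, adjusted p = 3.00e-13). SEMA3E, which binds PLXND1 without a neuropilin, had 25, 34, and 47 counts in the Control libraries and 0 in every ATRA library. Against a floor of 3 counts per library it was at least 15.8-fold lower (adjusted p = 8.85e-08). SEMA3G had 13, 16, and 12 counts without ATRA and 1, 0, and 0 with it, a ratio of 55.3 with an exact 95% counting interval from 9.38 to 2230. The groups of SEMA3A did not overlap, as in 80.1% of all tested genes. SEMA3E and SEMA3G passed the filter through Control only, so a separation of their groups is in part built into that selection.

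The class 3 members with more reads moved less. SEMA3C fell from 147, 154, and 164 CPM to 81.2, 108, and 90.6 CPM (log2FC -0.73, SE 0.0820, adjusted p = 2.52e-07). SEMA3F had 52.8, 46.5, and 52.3 CPM against 41.8, 42.0, and 40.9 CPM with ATRA (log2FC -0.28, SE 0.0693). SEMA3B had 31.0, 29.0, and 30.0 CPM against 27.2, 23.0, and 25.4 CPM (log2FC -0.25, SE 0.0796). The small falls of SEMA3F and SEMA3B turned to log2FC of 0.20 and 0.23 with library size only, while SEMA3C had -0.25. SEMA3D, with 1 to 16 counts per library, was not tested. By gene order in the goat assembly ARS1.2, SEMA3A has SEMA3D and SEMA3E as its direct protein-coding neighbours.

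The membrane-bound semaphorins of classes 4 to 7 mostly rose, with 3 called higher, 3 rising by 2-fold or less, and 1 called lower among 7 tested. Of these, SEMA5A and SEMA6D passed the filter through ATRA only, as SEMA3E and SEMA3G did through Control only. Over the filter in both groups, 2 of 5 in classes 4 to 7 were called higher and 1 lower, against 0 and 1 of 4 in class 3. Of all such genes, 10.1% were called higher and 16.0% lower. SEMA6D, a transmembrane semaphorin, had 0, 2, and 2 counts in the Control libraries and 153, 164, and 111 in the ATRA libraries. The ratio was 79.4 with an exact 95% counting interval from 30.8 to 293, and the test gave an adjusted p of 1.58e-10. SEMA6C, from the same class, rose from 3.54, 3.99, and 4.76 CPM to 17.2, 15.3, and 16.5 CPM (log2FC 1.99, SE 0.119, adjusted p = 2.22e-11). SEMA7A, a lipid-anchored semaphorin that binds PLXNC1 and integrins, rose from 43.3, 42.5, and 42.4 CPM to 98.9, 102, and 101 CPM (log2FC 1.24, SE 0.0597, adjusted p = 8.11e-13). The groups of SEMA6C and SEMA7A did not overlap, and for SEMA6D a separation is in part built into the filter.

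SEMA4F was the exception. It fell from 28.1, 25.3, and 24.3 CPM to 5.51, 5.67, and 5.32 CPM (log2FC -2.23, SE 0.0962, adjusted p = 1.46e-13). Smaller rises were measured for SEMA4C, a ligand of PLXNB2, with 16.6 ± 0.943 and 30.0 ± 1.18 CPM (SD, n = 3 each, log2FC 0.85), and for SEMA4G, with 7.35 ± 1.36 and 10.2 ± 0.446 CPM (SD, n = 3 each, log2FC 0.48). SEMA5A, with 9 to 29 counts per library, had a log2FC of 0.90 and an adjusted p of 0.0212, which was 0.0916 without Control replicate 1, 0.0572 without ATRA replicate 3, and 0.0794 with DESeq2. The other 6 members of these classes were not tested. SEMA4A, SEMA4B, SEMA4D, SEMA6A, and SEMA6B had at most 4 counts in any library. SEMA5B held the most counts among them, with 14, 9, and 14 in the Control libraries and 6, 2, and 2 in the ATRA libraries.

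Among the receptors of the semaphorins, 4 plexins were called lower and none higher. PLXNA2, a partner of class 3 and class 6 semaphorins, fell from 243, 228, and 245 CPM to 47.4, 52.5, and 48.4 CPM (log2FC -2.27, SE 0.0615, adjusted p = 1.33e-16). PLXND1, the receptor of SEMA3E, fell from 152, 142, and 149 CPM to 39.0, 38.5, and 38.1 CPM (log2FC -1.94, SE 0.0593, adjusted p = 8.42e-16). Within each group the libraries of both genes lay close together and the groups far apart. PLXNB3 fell from 12.9 ± 1.87 to 4.84 ± 0.164 CPM (SD, n = 3 each, log2FC -1.41) and PLXNA3 from 54.3 ± 4.73 to 22.7 ± 0.707 CPM (SD, n = 3 each, log2FC -1.26). With library size only these last falls were -0.93 and -0.78 on the log2 scale, short of the threshold of size.

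PLXNB1, a receptor of class 4 semaphorins, rose from 41.3, 35.8, and 43.1 CPM to 67.4, 63.5, and 65.1 CPM (log2FC 0.71, SE 0.0732, adjusted p = 6.28e-08). The co-receptor NRP2, which also binds VEGF, rose by a small step from 483, 475, and 497 CPM to 547, 611, and 605 CPM (log2FC 0.28, SE 0.0592, adjusted p = 0.000338). NRP1, the co-receptor of SEMA3A, had 8.83, 9.92, and 11.2 CPM without ATRA and 6.69, 10.6, and 7.78 CPM with it. The groups overlapped, and the log2FC was -0.26 (SE 0.147, adjusted p = 0.115). ATRA replicate 2 decided that call, since without it the log2FC was -0.47 (adjusted p = 0.000866), and with library size only the sign turned to 0.22.

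The other tested plexins did not pass the test. PLXNC1, the receptor of SEMA7A, had 4.02 ± 0.542 and 3.99 ± 0.831 CPM (SD, n = 3 each, log2FC -0.01, SE 0.173, adjusted p = 0.969). PLXNA1 is divided over 2 rows. The row under its symbol had 67.7 ± 3.20 and 73.4 ± 2.68 CPM (SD, n = 3 each, adjusted p = 0.0940), and LOC102177760 had 47.5 ± 4.10 and 51.6 ± 4.92 CPM (SD, n = 3 each, adjusted p = 0.188). PLXNB2 is divided over 3 rows. LOC108633277 had 138 ± 11.7 and 146 ± 7.32 CPM, LOC102184794 had 110 ± 8.73 and 109 ± 7.16 CPM, and LOC108636083 had 3.79 ± 0.416 and 3.33 ± 0.265 CPM (SD, n = 3 each). None of the 3 passed the test (adjusted p = 0.257, 0.954, and 0.288), and in assembly ARS1.2 the rows LOC108633277 and LOC108636083 are direct neighbours. How reads were divided among such rows is not known, so each single value is uncertain. Summed by symbol, an alternative chosen after seeing the table, PLXNA1 had a log2FC of 0.12 (SE 0.0593, adjusted p = 0.0781) and PLXNB2 of 0.04 (SE 0.0554, adjusted p = 0.501). PLXNA4, with 4 to 14 counts per library, was not tested.

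Eph receptors were called in both directions, with 4 called higher and 3 lower among 8 tested. Of all tested genes, 13.7% were called higher and 17.3% lower. EPHA5 and EPHB6 passed the filter through ATRA only and EPHA3 through Control only. Among the 5 over the filter in both groups, 2 were called higher and 2 lower, where 10.1% and 16.0% of such genes in the whole table were. EPHA2, an Eph kinase known from epithelia and from migrating cells, rose from 122, 116, and 122 CPM to 389, 389, and 400 CPM (log2FC 1.70, SE 0.0547, adjusted p = 1.75e-15). EPHA3, a receptor of mesenchymal cells, went from 911, 1083, and 860 counts to 10, 8, and 7. This corresponds to 29.9 ± 3.38 and 0.194 ± 0.0330 CPM (SD, n = 3 each, log2FC -7.24, SE 0.171, adjusted p = 1.72e-17), and the ratio of 154 had an exact 95% counting interval from 104 to 238. EPHA4, which binds ephrins of both classes, fell from 39.3, 38.4, and 38.4 CPM to 5.39, 5.8, and 5.85 CPM (log2FC -2.77, SE 0.0847, adjusted p = 8.42e-16). The groups of EPHA2 and EPHA4 did not overlap, and for EPHA3 a separation is in part built into the filter.

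Of the B-class receptors, 1 was called higher and 1 lower. EPHB3 fell from 29.7, 30.0, and 33.5 CPM to 12.6, 10.3, and 12.5 CPM (log2FC -1.40, SE 0.0926, adjusted p = 1.01e-10), and its log2FC was -0.92 with library size only. EPHB4, the receptor of EFNB2 in veins, had 66.3 ± 1.92 and 53.0 ± 1.70 CPM (SD, n = 3 each). Its log2FC of -0.32 (SE 0.0622, adjusted p = 0.000122) turned to 0.16 with library size only. EPHB6, a family member without kinase activity, had 3, 4, and 7 counts in the Control libraries and 44, 63, and 28 in the ATRA libraries (log2FC 2.81, SE 0.442, adjusted p = 1.31e-05).

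EPHA5 was called higher on few reads as well, with 3, 7, and 3 counts without ATRA and 54, 39, and 41 with it (log2FC 2.91, SE 0.412, adjusted p = 3.71e-06). EPHA1 had 15, 11, and 21 counts without ATRA and 54, 29, and 52 with it (log2FC 1.09, SE 0.349, adjusted p = 0.00829). Its call was lost without Control replicate 2 (log2FC 0.87, adjusted p = 0.0559). The remaining 6 Eph receptors were not tested. EPHA10 had 0, 4, and 2 counts without ATRA and 15, 8, and 24 with it, and EPHA6 had 1 to 9 counts per library. EPHB1 had 14, 15, and 7 counts in the Control libraries and 2, 1, and 0 in the ATRA libraries, and EPHA7, EPHA8, and EPHB2 had at most 2 counts in any library.

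Ephrins, the ligands of these receptors, were mostly low in counts. EFNB1, a transmembrane ephrin, was the exception and fell from 65.7, 64.4, and 66.0 CPM to 28.0, 25.8, and 26.5 CPM (log2FC -1.29, SE 0.0669, adjusted p = 2.57e-12). With library size only its log2FC was -0.81. EFNA4, an ephrin anchored by a lipid, had 7, 5, and 8 counts without ATRA and 49, 61, and 36 with it (log2FC 2.41, SE 0.368, adjusted p = 8.91e-06). EFNA5 had 4, 4, and 3 counts without ATRA and 15, 18, and 21 with it (log2FC 1.84, SE 0.483, adjusted p = 0.00206). EFNA4 and EFNA5 passed the filter through ATRA only, so a separation of their groups is in part built into that selection. No ephrin over the filter in both groups was called higher.

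EFNA1, the usual partner of EPHA2, had 3.19, 2.75, and 2.83 CPM without ATRA and 2.8, 3.47, and 3.38 CPM with it. These groups overlapped, and the log2FC was 0.14 (SE 0.168, adjusted p = 0.457). In assembly ARS1.2, EFNA1, EFNA3, and EFNA4 lie next to each other in that order, and EFNA3 had 2 to 12 counts per library. EFNA2 had a log2FC of -0.36 (SE 0.173, adjusted p = 0.0628), which turned to 0.11 with library size only. EFNB3, with 13 to 41 counts per library, had a log2FC of -0.96 (SE 0.381, adjusted p = 0.0285) although its groups overlapped, and without Control replicate 1 it had -0.53 (adjusted p = 0.266). EFNB2, the arterial ephrin, was not detected without ATRA (0 counts in each library) and had 11, 12, and 7 counts with it, below the filter. Against the floor of 3 counts per library it was at least 2.46-fold higher.

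The ratio of 2 genes within a library depends neither on library scaling nor, when compared between groups, on gene length. Such ratios were computed for 6 pairs chosen after the values were seen, and are given as a description. NTN4/NTN1 had log2 ratios of -2.96, -2.59, and -2.92 in the Control libraries and 4.19, 3.66, and 3.7 in the ATRA libraries, a shift of 102-fold. UNC5B/UNC5C went from -3.22 ± 0.19 to 1.02 ± 0.088 (SD, n = 3 each), and EPHA2/EPHA4 from 1.64 ± 0.036 to 6.11 ± 0.055 (SD, n = 3 each). PLXNB1/PLXNA2 went from -2.58 ± 0.085 to 0.40 ± 0.12 and ROBO1/SLIT2 from 1.33 ± 0.060 to 3.45 ± 0.17 (SD, n = 3 each). SEMA7A/SEMA3A went from 1.09 ± 0.097 to 4.77 ± 0.14 (SD, n = 3 each). In every pair the shift was many times the spread within a group. Each pair set a member called lower under one that was not, so a shift follows from that choice.

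**Figure D3:**
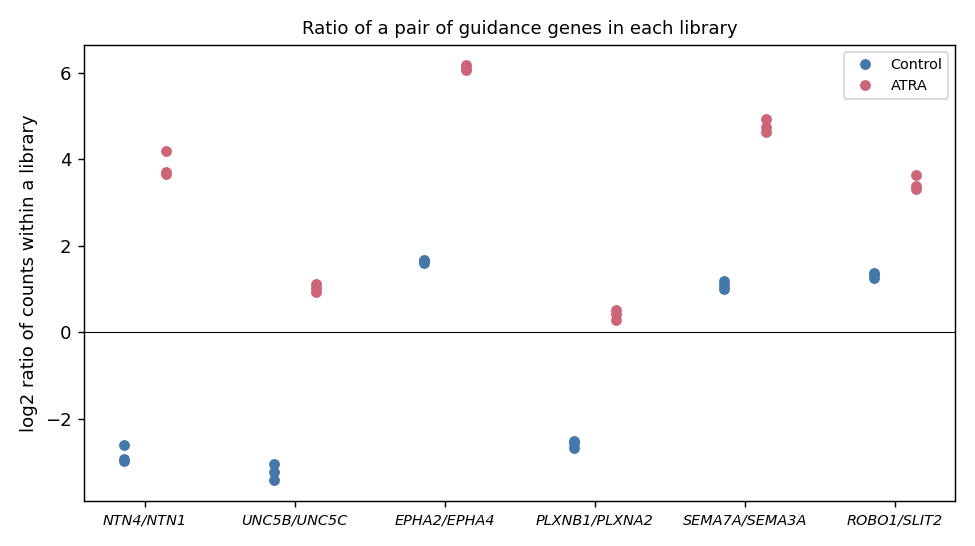
Log2 ratio of the counts of 2 guidance genes within each library (y axis) for 6 pairs (x axis), in Control (blue) and ATRA (red) libraries. The 3 libraries of a group cluster, and NTN4/NTN1, UNC5B/UNC5C, and PLXNB1/PLXNA2 change from below 0 to above 0.

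The relays and co-receptors of these pathways were followed in a list of 76 other genes, of which 74 had a row and 64 were tested. With ATRA, 7 were called higher (10.9%) and 17 lower (26.6%), against 13.7% and 17.3% of all tested genes, and the median log2FC was -0.22. Among 25 tested plexin effectors, 1 was called higher and 10 lower. The collapsin response mediators link semaphorin receptors to microtubules, and 3 of their 5 genes were called lower. DPYSL3 fell from 1280, 1260, and 1300 CPM to 66.9, 60.4, and 65.7 CPM (log2FC -4.31), DPYSL2 from 103 ± 7.39 to 11.2 ± 1.33 CPM (log2FC -3.20), and CRMP1 from 5.09 ± 0.716 to 0.186 ± 0.0355 CPM (log2FC -4.75, SD, n = 3 each). DPYSL4, with 2 to 15 counts per library, did not pass the test (log2FC -0.37, SE 0.575, adjusted p = 0.556), and DPYSL5 had 1 count in all libraries together. RHOA, the GTPase that many guidance receptors engage, fell from 547 ± 5.93 to 261 ± 1.68 CPM (SD, n = 3 each, log2FC -1.07).

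Of the 11 tested Slit and Robo effectors, 4 were called lower and none higher. PAK1, a kinase downstream of Rac, fell from 49.8 ± 2.71 to 6.06 ± 0.580 CPM (SD, n = 3 each, log2FC -3.04). SOS1, an exchange factor of Ras and Rac, rose from 40.4 ± 2.32 to 80.7 ± 4.27 CPM (SD, n = 3 each), a log2FC of 1.00 that did not exceed the threshold of size.

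Among the netrin co-receptors and related ligands, the FLRT genes moved in opposite directions. FLRT2, a ligand of UNC5 receptors, fell from 332, 325, and 331 CPM to 44.6, 46.8, and 41.5 CPM (log2FC -2.90), and FLRT3 rose from 111, 119, and 122 CPM to 289, 348, and 284 CPM (log2FC 1.39). NEO1, which encodes the netrin and RGM receptor neogenin, rose from 5.12 ± 0.227 to 20.8 ± 1.30 CPM (SD, n = 3 each, log2FC 2.02). DCC, the classical netrin receptor, had 1 count in all libraries together. Of 14 tested Eph effectors, 2 were called higher and 1 lower, and of 8 tested netrin effectors, 1 was called higher and 0 lower. NGEF, an exchange factor bound by EphA receptors, rose from 2.29 ± 0.405 to 14.9 ± 0.443 CPM (SD, n = 3 each, log2FC 2.71). The Eph effector TIAM2 fell from 128 ± 11.3 to 19.2 ± 0.993 CPM (SD, n = 3 each, log2FC -2.74). DAPK1, a death-associated kinase that binds UNC5 receptors, rose from 2.39 ± 0.283 to 7.83 ± 1.35 CPM (SD, n = 3 each, log2FC 1.71). All of these changes had an adjusted p under 0.05.

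The deposited annotation placed 66 of the 70 rows in the KEGG pathway axon guidance. Of the other rows in that pathway, 94 were tested, and 12 were called higher (12.8%) and 26 lower (27.7%), with a median log2FC of -0.39. Among all tested genes, 13.7% were called higher and 17.3% lower. Some of these pathway rows, such as RHOA, PAK1, and NEO1, are also in the list of relays and co-receptors above. Their shares are therefore no separate result. The choice of scaling changed signs and calls among the members. When library size alone set the scale, 8 tested members changed sign, all of them with a log2FC between 0 and -0.36 on the TMM scale, and 5 members called lower fell short of the threshold of size. No member called higher did so, and SEMA4C, SEMA5A, and PLXNB1 passed that threshold upwards (log2FC 1.33, 1.38, and 1.18).

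**Figure D4:**
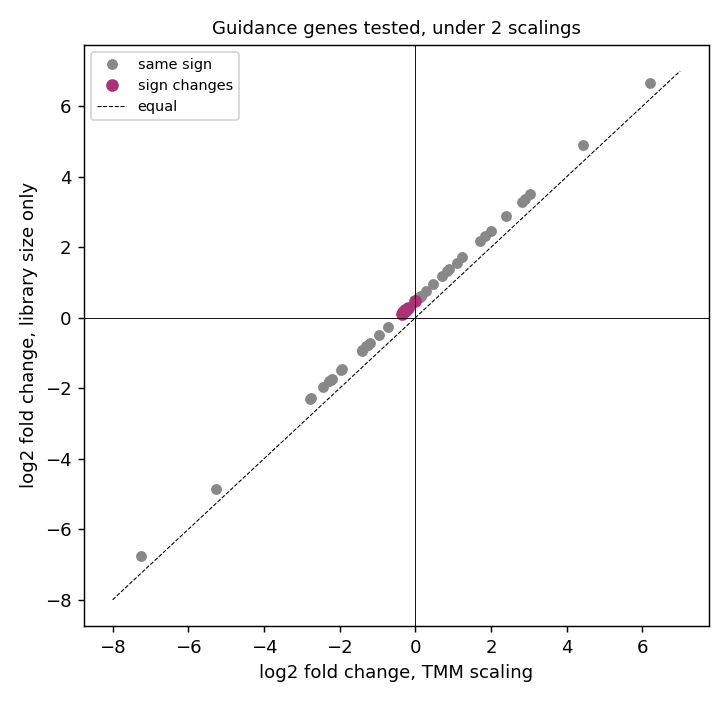
Log2 fold change of the tested guidance genes with TMM scaling (x axis) and with library size only (y axis), with a dashed line at equal values and SEMA3E left out because it rests on 0 counts with ATRA. The points lie above the line throughout, and those marked for a change of sign lie close to 0. LOC102184794, with a rounded value of 0 on the TMM scale, is drawn among the points of the same sign.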

How the data were processed

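RNA-seq of 3 Control and 3 ATRA libraries was used. The authors enriched poly(A) mRNA and cleaned reads with fastp and TrimGalore. The submitters' processing notes name HISAT2, featureCounts, and DESeq2. The build is not given in the sources used here. The deposited values are whole-number counts of reads per gene, without normalization, and all columns of values were used. Counts were filtered with edgeR's filterByExpr (12588 genes), scaled by TMM, and tested with its quasi-likelihood test (robust, no covariate, prior count 0.125). The SE is |log2FC| over the square root of F. An alternative took log2(CPM + 1) values into R's t.test function, with adjusted p. The study used that function with unadjusted p, and what values it was run on is not given in the sources used here. With 3 libraries per group, the p-values measure the spread between these cultures. Counting intervals and floors cover counting error only. No pair of libraries within a group agreed within sampling noise (chi-square divided by its degrees of freedom lay between 5.01 and 18.4).

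The members and gene lists were chosen with earlier results of these data known. Named in each role were up to 3 members per direction with the largest |log2FC| at an adjusted p under 0.05 and 1 CPM in a group, the member with the most counts, and abundant members that did not pass. From the other pathway genes, up to 5 per direction were named. Other members, the marker genes, RHOA, TIAM2, and the genes in the ratios were named after their values were seen. List genes without a row under their symbol (DCC, MICAL2, KRT15, KRT17, and TUBB3) were matched by annotated symbol. All 70 member names matched the RefSeq gene table of assembly ARS1.2, used for gene order only. Alternatives were other scalings, filters, thresholds, tests, prior count, a replicate block, and each library left out. Versions were R 4.3.3, edgeR 4.0.16, DESeq2 1.42.0, Python 3.11.15, and matplotlib 3.10.9.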

Additional observations from a re-analysis of the deposited data

How the results depend on the processing

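Across 16 alternatives, 39 of 47 tested guidance members kept their sign and 30 also kept their side of the adjusted p threshold. With library size only, the log2FC turned to 0.23 for SEMA3B, 0.20 for SEMA3F, 0.16 for EPHB4, 0.11 for EFNA2, 0.22 for NRP1, 0.47 for LOC102184794, 0.29 for LOC108636083, and 0.47 for PLXNC1. LOC102184794 and PLXNC1, both near 0, also turned with upper quartile scaling (0.07 for both), with a CPM of at least 1 in 3 libraries (0.01 for both), without Control replicate 3, and without ATRA replicate 1 (over the libraries left out, -0.05 to 0.06 and -0.18 to 0.13), and LOC102184794 turned to 0.04 with rows of one symbol summed.

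The 11 members called higher became 6 when both the test and the fold scale were changed (R's t.test function, values of log2(CPM + 1), which shrink the fold of low genes) and 6 with |log2FC| above 2, and the 16 called lower became 9 with |log2FC| above 2. Leaving out each library gave 11 to 14 higher and 16 to 19 lower. Of the other pathway genes, the 7 called higher became 15 with library size only, 4 with that same change of test and fold scale, 23 with no minimum log2FC, and 4 with |log2FC| above 2. The 17 called lower became 32 with no minimum log2FC and 9 with |log2FC| above 2. Leaving out each library gave 7 to 10 higher and 17 lower. Same-numbered libraries did not deviate together (r = 0.089, 0.030, and -0.076). With 3 libraries per group, these values cannot settle whether equal numbers mark the same animal. A replicate block gave 11 members higher and 16 lower, and 7 and 17 of the other genes. The cause of these changes was not tested. Members under the filter are limited by depth, with at most 24 counts in a library.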
